A study of Homo sapiens with 8 samples.

Results

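A list of 10 genes that mark blood monocytes or encode small calcium-binding S100 proteins was followed in human microglia grown together with other cells or alone. Each of the 10 symbols was matched to 1 row of a deposited count table of 78899 genes. The members are 7 S100 genes (S100A8, S100A9, S100A12, S100A4, S100A6, S100A10 and S100A11) and 3 further monocyte genes (LYZ, FCN1 and VCAN). All 10 had counts in some library, and 8 passed the filter on low counts and were tested, while S100A12 and FCN1 were too low.

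The cells were GFP-labelled microglia, the resident macrophages of the brain, derived from H1, an established human embryonic stem cell line, although parts of the labels describe an induced pluripotent source. Tri-cultures (4 libraries) held the microglia with further cells that the labels do not name, and received no added cytokine. Mono-cultures (4 libraries) held microglia with IL-34 at 100 ng/mL and M-CSF at 10 ng/mL, both ligands of the CSF1 receptor, so the other cells and the missing cytokines cannot be told apart as a source of any difference. Cells of both groups came from the same single line and were recovered by fluorescence-activated sorting 2 weeks after plating, in 4 batches with 1 library of each group per batch. The promoter that drives GFP is not given in the labels used here.

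Library totals ran from 17602010 to 24491765 counts in tri-culture and from 17037481 to 33363972 counts in mono-culture. All 15 microglia and macrophage markers were tested, and their summed level was 7807 to 8976 CPM (counts divided by the library total and scaled to 1e6) in tri-culture and 5714 to 6548 CPM in mono-culture. Of the 15, 6 were higher and 1 was lower in tri-culture. Among the defining markers, P2RY12 rose by 1.63 on the log2 scale (edgeR adjusted p = 0.000114), whereas AIF1, CSF1R, PTPRC and TMEM119 did not pass (adjusted p = 0.498, 0.174, 0.909 and 0.0855). TMEM119 was called lower with the batch as a block (log2 -0.70, edgeR adjusted p = 0.00761) and without the tri-culture library of batch 1 (adjusted p = 0.000245), and CSF1R was called higher without that of batch 2 (0.57, 0.00964). Markers of other cells were not absent from the sorted tri-culture libraries. The sum of 16 astrocyte and neural progenitor genes, S100B left out, was 353 to 769 CPM in tri-culture and 220 to 233 CPM in mono-culture. Of these, SLC1A3 and NES averaged 105 and 89.2 CPM in mono-culture, most of its sum, against 84.7 and 30.0 CPM in tri-culture. AQP4, an astrocyte water channel, had 11.03 to 38.2 CPM in tri-culture and 0 counts in mono-culture.

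S100 proteins are small calcium sensors that work mostly as dimers. S100A8 and S100A9 pair as calprotectin, and with S100A12 they are abundant in the cytosol of neutrophils and monocytes and are released as danger signals during inflammation. S100A4, S100A6, S100A10 and S100A11 are found in many cell types, where they bind annexins, myosin and other partners. LYZ encodes lysozyme, FCN1 the lectin M-ficolin, and VCAN the large matrix proteoglycan versican, and blood monocytes express all 3.

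Of the 8 tested members, 4 were higher in tri-culture (S100A8, S100A9, LYZ and VCAN), 1 was lower (S100A6) and 3 were not called (S100A4, S100A10 and S100A11). A gene was called where its Benjamini-Hochberg adjusted p in edgeR's quasi-likelihood test over all 16249 tested genes was under 0.05. The test called 62.5% of these 8 members, against 26.9% of all tested genes; over all tested genes 13.9% were called higher and 13% lower in tri-culture. The median log2 fold change, tri-culture minus mono-culture, was 0.90 over the 8 members and 0.02 over all tested genes. The members and the lists below were chosen with earlier results of these data known. These shares and medians therefore describe the members and do not test them as a set. The shares over all tested genes also stand as the background for each list below. The CPM values of the groups did not overlap for 5 of the 8 tested members (S100A8, S100A9, S100A6, LYZ and VCAN). This held for 30.2% of all tested genes. S100A8 and VCAN passed the low-count filter through their tri-culture libraries alone, so passing already fixed that their groups would not overlap. These are bulk samples, in which fewer cells of a type and less RNA per cell cannot be told apart.

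**Figure D1:**
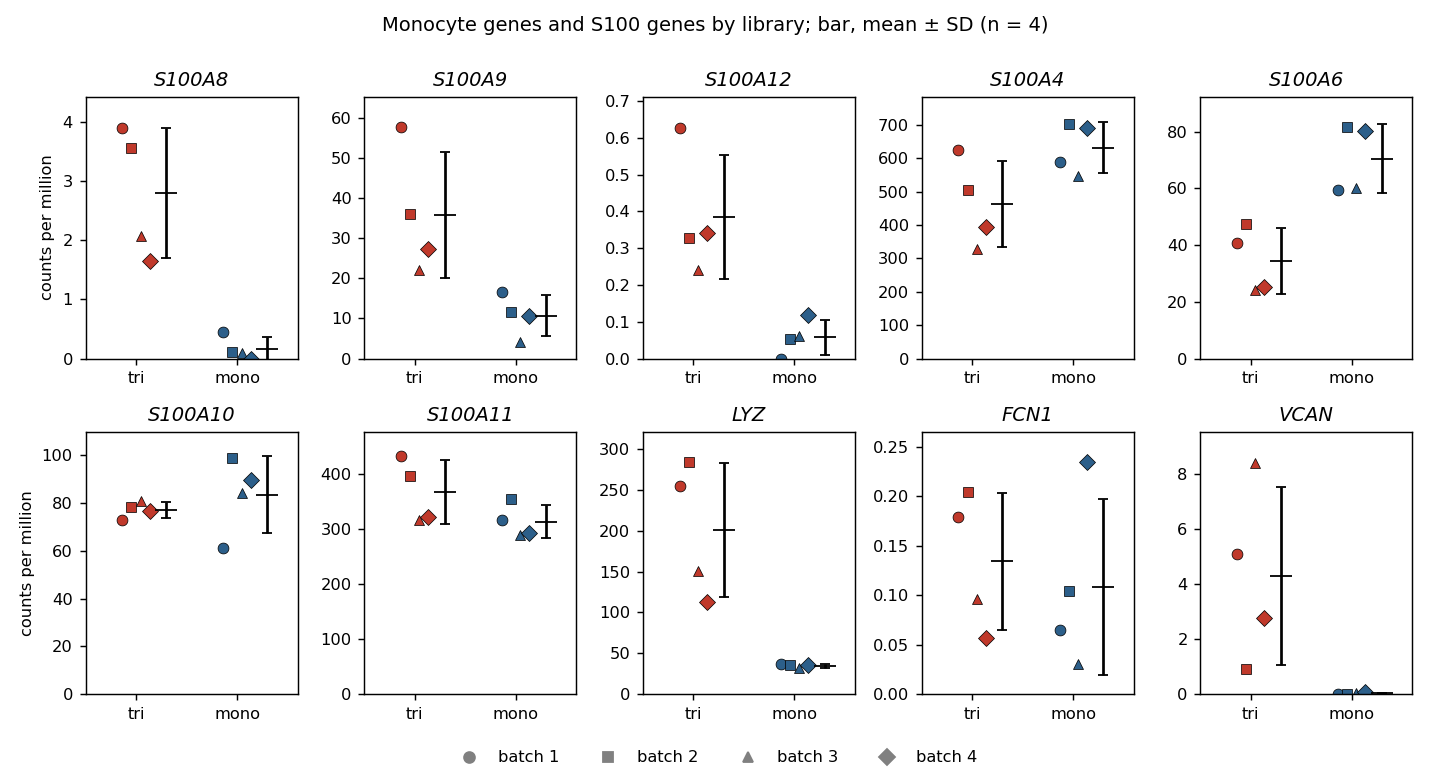
Each panel plots 1 gene, with CPM on the y axis, the 4 tri-culture libraries (red) left of the 4 mono-culture libraries (blue), a symbol per batch, and a bar for mean ± SD (n = 4; bars that would run below 0 end at the axis). S100A8, S100A9, S100A12, LYZ and VCAN were higher in every tri-culture library than in any mono-culture library, and S100A6 was lower.

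The 3 genes of the inflammatory S100 proteins all had higher values in tri-culture. S100A8 had 3.90, 3.55, 2.07 and 1.65 CPM in the tri-culture libraries of batches 1 to 4, against 0.453, 0.104, 0.0899 and 0 CPM in the mono-culture libraries. Every tri-culture library lay above every mono-culture library, and the mono-culture values rest on 19 counts in all, 14 of them in batch 1. S100A8 rose 14.4-fold (log2 3.84 ± 0.64 SE, 95% interval 2.45 to 5.23, edgeR adjusted p = 0.000571). Without the mono-culture library of batch 1 the log2 fold change was 5.15, larger and in the same direction.

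S100A9, the dimer partner of S100A8 in calprotectin, had 57.7, 36.0, 22.0 and 27.3 CPM in tri-culture, against 16.6, 11.5, 4.11 and 10.6 CPM in mono-culture. The groups did not overlap, with the lowest tri-culture library above the highest mono-culture library, and within each batch the tri-culture library was the higher one. S100A9 rose 3.16-fold (log2 1.66 ± 0.39 SE, interval 0.81 to 2.50, edgeR adjusted p = 0.00638). It was not called when no filter on low counts was used (edgeR adjusted p = 0.151) or in batches 3 and 4 alone (0.0968).

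S100A12, a ligand of the receptor RAGE that is largely restricted to granulocytes and monocytes, was near the limit of detection. It had 14, 8, 5 and 6 counts in the tri-culture libraries and 0, 1, 2 and 2 in the mono-culture libraries, and the CPM values did not overlap. Relative to the library totals the count ratio was 7.80, with a 95% interval of 3.02 to 25.6 that covers counting error only. S100A12 did not pass the filter, and in a fit without it over 39751 genes its log2 fold change was 2.68 (edgeR adjusted p = 0.0400).

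Per length, S100A9 RNA exceeded S100A8 RNA in every library, and the ratio was smaller in tri-culture in the 3 batches where it could be formed in both groups. On the deposited length-normalised signal, S100A9 was 19.1, 13.1, 13.7 and 21.4 times S100A8 in the tri-culture libraries of batches 1 to 4. In mono-culture the ratio was 47.2, 143 and 58.8 in batches 1 to 3, and batch 4 had no S100A8 signal. The mono-culture ratios rest on 14, 2 and 3 S100A8 counts.

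The promoters of these 3 genes and of S100A4 and S100A6 are printed because these genes lie close together on chromosome 1, where S100A8 and S100A9 were higher and S100A6 was lower in tri-culture. The windows run from 250 bases before to 50 bases after a transcript start in RefSeq (GRCh38.p14), and 9 of the 10 members had one, LYZ being the exception. Both strands were searched, and capitals mark a match to TATAAA (the core promoter element known as the TATA box), to GAGGAA (letters bound by PU.1, a macrophage lineage factor) or to TTGCNNAA (letters bound by C/EBP factors). The first 3 windows are those of S100A8 (chr1:153391024-153391323, minus strand, the start of 3 listed that has a TATA box close before it), S100A9 (chr1:153357604-153357903, plus strand) and S100A12 (chr1:153375572-153375871, minus strand).
S100A8: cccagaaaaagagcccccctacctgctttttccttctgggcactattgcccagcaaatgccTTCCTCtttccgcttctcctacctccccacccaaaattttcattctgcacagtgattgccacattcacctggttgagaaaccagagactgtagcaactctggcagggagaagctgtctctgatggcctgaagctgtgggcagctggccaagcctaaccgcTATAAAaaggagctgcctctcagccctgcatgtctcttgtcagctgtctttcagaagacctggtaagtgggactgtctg
S100A9: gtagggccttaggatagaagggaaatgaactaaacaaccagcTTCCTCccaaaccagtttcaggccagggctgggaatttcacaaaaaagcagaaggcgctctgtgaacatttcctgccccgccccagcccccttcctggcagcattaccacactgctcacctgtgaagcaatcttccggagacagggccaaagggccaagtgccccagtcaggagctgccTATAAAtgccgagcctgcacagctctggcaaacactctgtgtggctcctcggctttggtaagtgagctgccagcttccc
S100A12: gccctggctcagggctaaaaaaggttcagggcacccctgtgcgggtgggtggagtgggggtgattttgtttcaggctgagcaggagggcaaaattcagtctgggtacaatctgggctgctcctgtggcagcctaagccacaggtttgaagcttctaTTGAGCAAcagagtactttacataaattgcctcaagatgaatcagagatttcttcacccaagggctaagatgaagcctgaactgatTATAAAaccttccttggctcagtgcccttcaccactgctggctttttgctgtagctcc

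TATAAA lay 29 bases before the start in both S100A8 and S100A9 and 8 bases before it in S100A12. The S100A8 start was picked for its TATA box, so a match close before it follows from that choice. Another listed S100A8 start had TATAAA 126 bases before it and lacked the PU.1 letters, and the remaining start had no TATAAA. The PU.1 letters occurred in the windows of S100A8, S100A9 and FCN1, and the C/EBP letters in those of S100A12 and S100A11. Over 35116 RefSeq promoter windows of the same length, 11.5% held TATAAA, 27.9% the PU.1 letters and 10.5% the C/EBP letters. A match is a description of the letters in these windows.

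Of the 4 members found in many cell types, S100A6 was lower in tri-culture and S100A4, S100A10 and S100A11 were not called. S100A6, also called calcyclin, had 40.6, 47.4, 24.1 and 25.3 CPM in tri-culture, against 59.5, 81.6, 60.3 and 80.1 CPM in mono-culture. All 4 tri-culture libraries lay below all 4 mono-culture libraries, by the widest margin in batches 3 and 4. S100A6 was 2.16-fold lower in tri-culture (log2 -1.11 ± 0.23 SE, interval -1.61 to -0.61, edgeR adjusted p = 0.00282), and it was called lower in all 24 alternative analyses.

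S100A4, a regulator of non-muscle myosin that is expressed in many motile cells, had 623.9, 506, 329 and 394 CPM in tri-culture, against 590, 702, 547 and 689 CPM in mono-culture. It was lower in tri-culture in batches 2 to 4 and slightly higher in batch 1, so the groups overlapped. The log2 fold change was -0.53 ± 0.21 SE (interval -0.98 to -0.09) and did not pass (edgeR adjusted p = 0.0748). Adding the batch to the model as a block gave -0.58, called lower (edgeR adjusted p = 0.0105). It was also called lower with the DESeq2 Wald test (adjusted p = 0.0363) and in edgeR with no filter on low counts (0.00126). Without the tri-culture library of batch 1 the value was -0.75 (edgeR adjusted p = 0.00806), and without both libraries of batch 1 it was -0.77 (0.0174).

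The windows of S100A4 (chr1:153545757-153546056, minus strand) and S100A6 (chr1:153535942-153536241, minus strand) stand beside each other here because the genes are near neighbours. S100A4 has TATAAA 31 bases before its start, and S100A6 holds none of the 3 letter strings.
S100A4: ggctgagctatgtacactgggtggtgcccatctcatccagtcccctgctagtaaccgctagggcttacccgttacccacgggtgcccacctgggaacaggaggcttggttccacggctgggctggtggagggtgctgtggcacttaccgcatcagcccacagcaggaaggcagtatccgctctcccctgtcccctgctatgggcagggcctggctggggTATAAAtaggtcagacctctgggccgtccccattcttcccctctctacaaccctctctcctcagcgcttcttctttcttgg
S100A6: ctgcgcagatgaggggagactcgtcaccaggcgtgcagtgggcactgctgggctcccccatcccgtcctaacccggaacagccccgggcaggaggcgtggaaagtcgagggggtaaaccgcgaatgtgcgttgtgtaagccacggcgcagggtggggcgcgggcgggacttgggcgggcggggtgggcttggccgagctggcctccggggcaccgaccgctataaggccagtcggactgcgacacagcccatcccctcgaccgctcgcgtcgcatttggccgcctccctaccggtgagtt

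S100A10, the light chain of the annexin A2 complex at the plasma membrane, had 72.9, 78.3, 81.0 and 76.5 CPM in tri-culture and 61.0, 99.0, 84.3 and 89.9 CPM in mono-culture. The tri-culture values fell within the mono-culture range. Its log2 fold change was -0.21, with an interval of -0.51 to 0.09 (edgeR adjusted p = 0.302). S100A11, a partner of annexin A1, had 433, 397, 316 and 322 CPM in tri-culture and 316, 355, 288 and 293 CPM in mono-culture. S100A11 was higher in the tri-culture library of each batch, by log2 0.46 in batch 1 and by 0.13 to 0.16 in batches 2 to 4. The groups overlapped. The log2 fold change was 0.14 (interval -0.20 to 0.47, edgeR adjusted p = 0.568); neither interval shows that the levels were equal.

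The S100 genes of chromosome 1 lie in a cluster, in which 4 genes had no count at all. The 7 members span 1567.2 kb, from 151982915 to 153550136 on GRCh38, and 10 other S100 genes with coordinates in GENCODE 29 lie on the same chromosome. S100A7, S100A7A, S100A7L2 and S100A1, the first 3 of them skin-associated, had 0 counts in all 8 libraries. S100A5, S100A3, S100A2 and S100A14, in the same cluster, were too low to test.

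**Figure D2:**
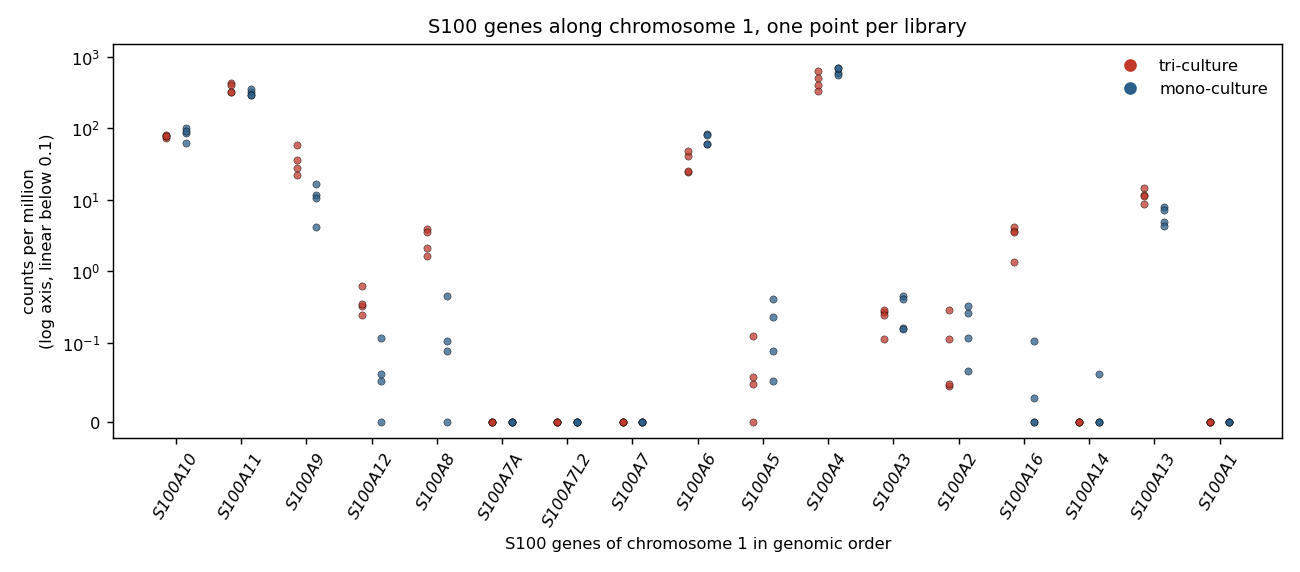
The 17 S100 genes of chromosome 1 stand on the x axis in genomic order, not to scale, with CPM on the y axis (log scale, linear below 0.1) and 1 point per library, tri-culture (red) left of mono-culture (blue). S100A4 had 329 to 702 CPM and S100A11 288 to 433 CPM over all libraries, whereas S100A7, S100A7A and S100A7L2 had 0 counts in every library; CPM is not corrected for gene length, so the plot compares groups within a gene.

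In the S100 family as a whole, the members included, 21 genes were found and 10 were tested. Of the 10, 6 were higher in tri-culture, 1 was lower and 3 were not called. Over all tested genes 13.9% were called higher and 13% lower. The 4 tested family genes outside the members were all higher in tri-culture, and their median log2 fold change was 1.34. Among these, S100A16 passed the low-count filter through the tri-culture libraries alone. S100B, a glial protein used as an astrocyte marker, averaged 366 ± 117 CPM in tri-culture and 120 ± 18.1 CPM in mono-culture (SD, n = 4 each; log2 1.53, edgeR adjusted p = 0.000264). It was well above 0 in mono-culture, where AQP4 had no count, and the part of astrocyte RNA in its difference was not tested. S100A16, a widely expressed family member, had 30, 90, 86 and 61 counts in tri-culture and 0, 2, 1 and 0 in mono-culture, so 1 library holds most of the mono-culture counts. Relative to the library totals that is a ratio of 105, with a 95% counting interval of 35.6 to 513 (edgeR adjusted p = 1.51e-05). The part of RNA of other cells in the S100A16 difference was not tested either.

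S100Z rose by 1.15 on the log2 scale (edgeR adjusted p = 0.00279). S100A13, which takes part in the release of fibroblast growth factor 1, rose by 0.83 (edgeR adjusted p = 0.0252), and 24.2% of its exon bases lie under another gene on the same strand. Its call was lost without the tri-culture library of batch 1 (edgeR adjusted p = 0.0717) or 2 (0.0518) or the mono-culture library of batch 3 (0.0758) or 4 (0.0839).

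The intracellular partners of S100 proteins were lower in tri-culture or not called. Of 8 partner genes, none was higher and 5 were lower in tri-culture, with a median log2 fold change of -0.49. AHNAK, the giant scaffold that binds the S100A10 and annexin A2 complex, averaged 808 ± 195 CPM in tri-culture and 2756 ± 864 CPM in mono-culture (SD, n = 4 each; log2 -1.87, edgeR adjusted p = 3.02e-05). ANXA2 itself, the partner of S100A10, fell by 0.62 on the log2 scale (edgeR adjusted p = 0.0148), and ANXA6, which binds S100A6, fell by 0.55 (0.00993). ANXA2 lost its call without batch 3 (edgeR adjusted p = 0.0657) or batch 4 (0.0567), and ANXA6 without batch 4 (0.0819). ANXA1 and ANXA11, partners of S100A11 and S100A6, were also called lower, and each lost its call without any 1 of 3 libraries. The edgeR adjusted p of ANXA1 was 0.0577 without the tri-culture library of batch 3, and 0.0605 and 0.0598 without the mono-culture libraries of batches 2 and 4. That of ANXA11 was 0.0503 without the tri-culture library of batch 4, and 0.0701 and 0.0675 without the mono-culture libraries of batches 1 and 2. The count of 5 fell to 3 without the mono-culture library of batch 2 and to 1 without batch 4.

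Receptors and co-receptors of S100A8, S100A9 and S100A12 were lower in tri-culture or not called, with 1 exception. Of 10 genes, 5 were lower and 1 was higher, and the median log2 fold change was -0.42. LY96, which encodes the TLR4 co-receptor MD-2, averaged 41.2 ± 9.11 CPM in tri-culture and 77.2 ± 6.70 CPM in mono-culture (SD, n = 4 each; log2 -0.99, edgeR adjusted p = 0.000389). NPTN, a neuroplastin that binds S100A8, fell by 0.78 (edgeR adjusted p = 5.73e-05), and the fatty acid receptor CD36 fell by 0.95 (0.000731). TLR4, the main signalling receptor of calprotectin, had a log2 fold change of -0.36 and was not called (edgeR adjusted p = 0.0544), although it was called lower without the tri-culture library of batch 2 (0.0229). ALCAM was called lower (edgeR adjusted p = 0.0485) and lost its call in 6 of the 8 analyses that left out 1 library (0.0659 to 0.139). MCAM, an adhesion molecule of vessel cells, was the 1 that rose, with 23 to 43 counts per library in tri-culture and 0 to 4 in mono-culture (edgeR adjusted p = 0.000187). AGER, which encodes RAGE, was not called (log2 0.46, edgeR adjusted p = 0.278).

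**Figure D3:**
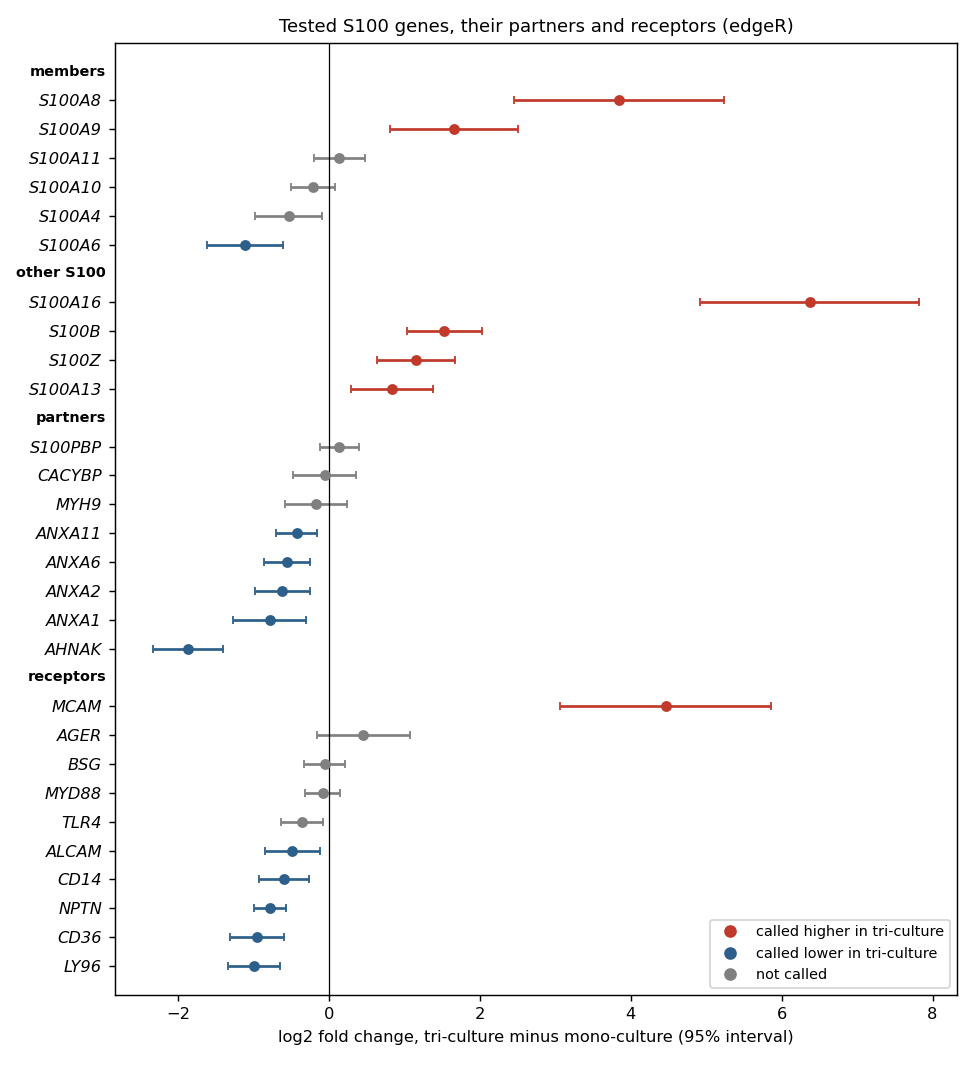
Points give the log2 fold change, tri-culture minus mono-culture, with its 95% interval from edgeR on the x axis, for every tested S100 gene, its partners and its receptors (red, called higher in tri-culture; blue, called lower; grey, not called). S100A8, S100A9 and the 4 other tested S100 genes are called higher, and AHNAK, the 4 annexins and 5 receptor genes are called lower; the S100A16 point rests on 3 mono-culture counts.

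LYZ, whose enzyme breaks down bacterial cell walls, was higher in tri-culture in every batch. It had 255, 285, 151 and 112 CPM in tri-culture, against 36.9, 35.4, 31.3 and 35.4 CPM in mono-culture. The mono-culture values were close together, whereas the tri-culture values of batches 1 and 2 were well above those of batches 3 and 4, and the groups did not overlap. LYZ rose 5.49-fold (log2 2.46 ± 0.27 SE, interval 1.87 to 3.05, edgeR adjusted p = 2.31e-05) and was called in all 24 alternative analyses. The gene lies on chromosome 12 from 69348341 to 69354234 on GRCh38, and 34.0% of its exon bases lie under AC020656.1 on the opposite strand, which had 0 counts.

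FCN1, a marker of classical monocytes, was hardly detected in either culture. It had 4, 5, 2 and 1 counts in tri-culture and 2, 2, 1 and 4 in mono-culture, so the groups overlapped. Relative to the library totals the ratio was 1.58, with a 95% counting interval of 0.609 to 4.23, and in the fit without a filter the log2 fold change of 0.34 was not called (edgeR adjusted p = 0.892). These counts do not separate the ratios within that interval, which covers counting error only. Of 8 genes of the ficolin and collectin families and their proteases, 3 were tested, and the protease MASP1 was higher while the scavenger collectin COLEC12 was lower. MASP1 had 12 to 25 counts per library in tri-culture and 0 counts in mono-culture, which is at least 27.6-fold higher if the whole mono-culture group is set at 3 counts. COLEC12 fell by 2.97 on the log2 scale (edgeR adjusted p = 7.93e-06).

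VCAN was present in every tri-culture library and almost absent from mono-culture. It had 5.11, 0.898, 8.42 and 2.78 CPM (114, 22, 175 and 49 counts) in tri-culture, against 0, 0, 0.0300 and 0.0587 CPM (0, 0, 1 and 1 counts) in mono-culture. The groups did not overlap, and the tri-culture library of batch 2 was the lowest of the 4. Relative to the library totals the ratio was 213, with a 95% counting interval of 58.4 to 1762 (edgeR adjusted p = 5.07e-05). Without the tri-culture libraries of batches 1 and 3, which hold most of its counts, VCAN was called higher (edgeR adjusted p = 0.000239). That pair was chosen after seeing the data, and VCAN passed the filter through tri-culture alone. The call is therefore no independent support.

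Genes of mesenchymal cells varied over the tri-culture libraries in the same order as VCAN. The summed level of 10 mesenchymal genes was 397, 19.5, 422 and 158 CPM in the tri-culture libraries of batches 1 to 4, against 29.5, 17.2, 17.0 and 36.7 CPM in mono-culture. COL3A1, a fibrillar collagen, had 198, 0, 236 and 89.4 CPM in tri-culture and 2.39, 0, 3.36 and 0 CPM in mono-culture. COL1A1 had 22.3, 0.0408, 49.5 and 13.9 CPM in tri-culture and 0.291, 0, 0.240 and 0 CPM in mono-culture. In batch 2, where COL3A1, DCN, LUM and POSTN had 0 counts in both libraries, VCAN had 22 counts in tri-culture and 0 in mono-culture. Of the 10 genes 5 were tested, TAGLN was higher (log2 2.03, edgeR adjusted p = 1.01e-05), none was lower, and COL3A1 was not called (0.0505). COL3A1 was called higher with the batch as a block (log2 6.52, edgeR adjusted p = 2.63e-05), without the tri-culture library of batch 2 (0.000144), and with library size only (0.0430), upper quartile factors (0.0450) or the DESeq2 Wald test (0.0447). The sum of the 16 astrocyte and neural progenitor genes was 353, 529, 769 and 669 CPM in the tri-culture libraries of batches 1 to 4. In mono-culture it was 220 to 233 CPM. The part of mesenchymal, astrocyte or progenitor RNA in the VCAN difference was not tested.

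The genes that act with versican moved in both directions. Of 16 binding partners, hyaluronan synthases and versican-cleaving proteases, 10 were tested, 2 were higher and 3 lower, with a median log2 fold change of 0.22. HAS2, the main synthase of the hyaluronan that versican binds, did not pass the filter and was not tested. It had 36, 11, 38 and 8 counts in tri-culture and 0 in mono-culture. Over the pooled libraries that is at least 36.6-fold higher if mono-culture is set at 3 counts, a bound that leaves out the spread between libraries. The protease ADAMTS15 averaged 5.17 ± 2.27 CPM in tri-culture and 28.1 ± 5.47 CPM in mono-culture (SD, n = 4 each; log2 -2.56, edgeR adjusted p = 8.68e-06). CD44, the hyaluronan receptor, fell by 0.55 on the log2 scale (edgeR adjusted p = 0.00421), and HAS3 rose by 1.72 (0.0157). ADAMTS9 was called higher (edgeR adjusted p = 0.0131) but had 187, 2, 114 and 38 counts in tri-culture and 5, 0, 2 and 14 in mono-culture, and lost its call without the mono-culture library of batch 1 (0.0558) or 3 (0.0653).

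**Figure D4:**
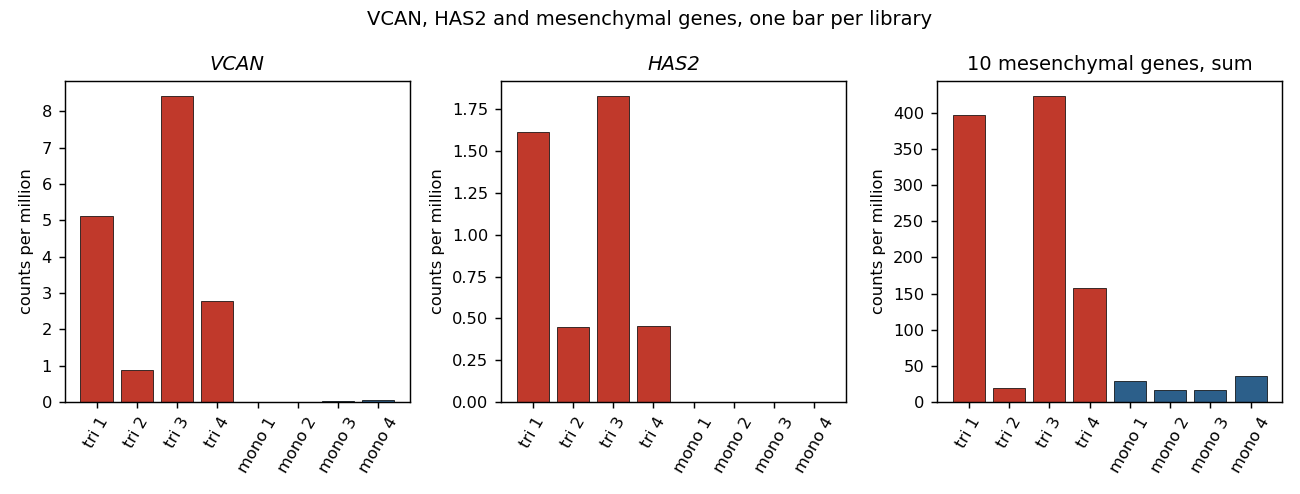
Bars give CPM (y axis) in each library for VCAN, HAS2 and the sum of 10 mesenchymal genes, tri-culture (red) left of mono-culture (blue). All 3 are high in tri-culture libraries 1 and 3 and lower in 2 and 4; HAS2 has 0 counts in mono-culture.

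Other genes of classical monocytes, the CD14-high blood subset that enters inflamed tissue, moved in both directions. Of 22 such genes 18 were tested, 7 were higher and 4 lower in tri-culture, with a median log2 fold change of 0.65. CCR2, the chemokine receptor that brings monocytes into tissue, had 3.95, 4.98, 2.55 and 3.01 CPM in tri-culture and 0.0970, 0, 0.0599 and 0.235 CPM in mono-culture (log2 5.16, edgeR adjusted p = 1.53e-05). The myeloid lectin receptor CLEC12A rose by 4.38 on the log2 scale (edgeR adjusted p = 3.87e-06) and CSF3R, the G-CSF receptor, by 3.23 (7.75e-06). CD14, the LPS co-receptor that defines the subset, moved the other way. It had 134, 82.4, 100.0 and 93.1 CPM in tri-culture and 149, 130, 153 and 151 CPM in mono-culture (log2 -0.60, edgeR adjusted p = 0.0105). The tri-culture library of batch 1 lay above the mono-culture library of batch 2, so the groups overlapped, and CD14 was not called without batch 3 (0.0521) or batch 4 (0.0629). The coagulation factor gene F13A1 and VNN2 were lower with CD36 and CD14.

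**Figure D5:**
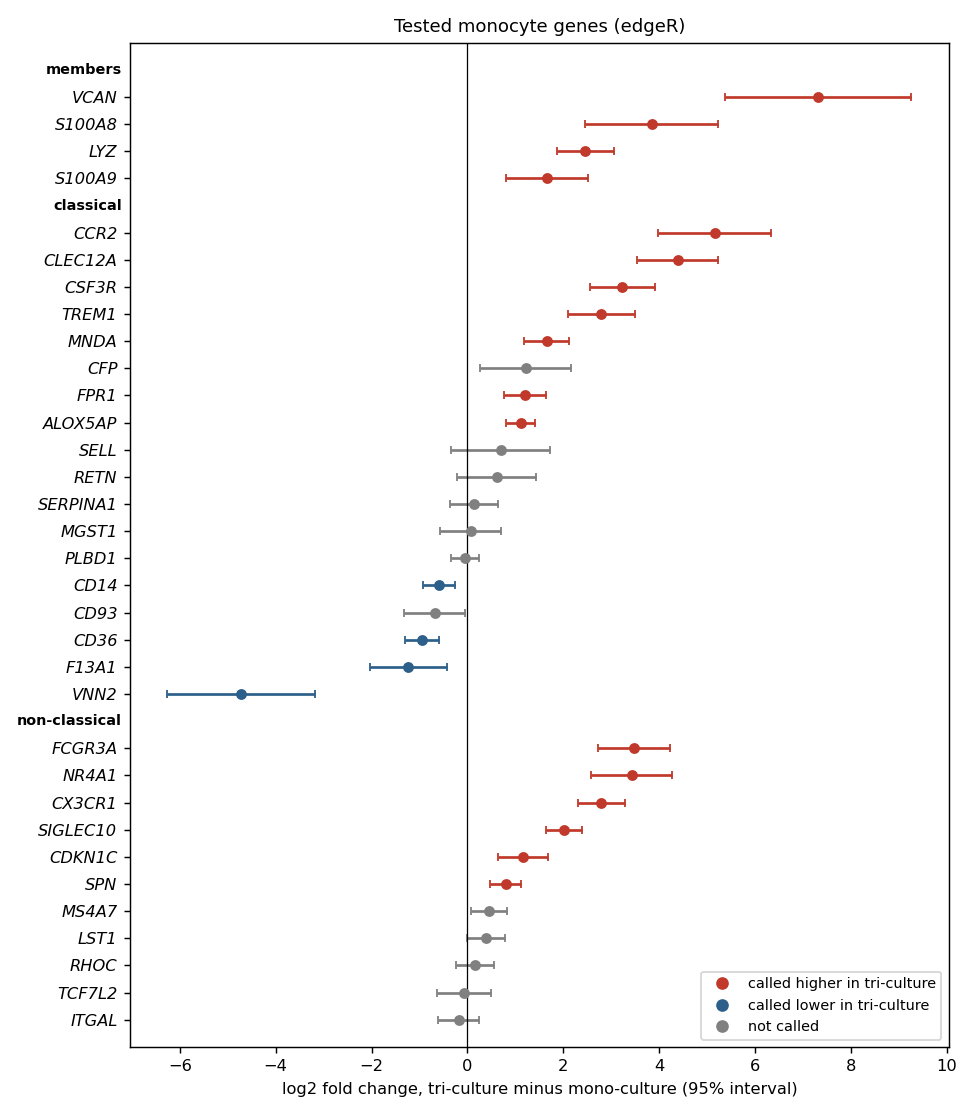
Points give the log2 fold change, tri-culture minus mono-culture, with its 95% interval from edgeR (x axis) for the 4 members called higher and for the tested genes of classical and non-classical monocytes (red, called higher in tri-culture; blue, called lower; grey, not called). CCR2, CLEC12A and CSF3R lie far right of 0, and CD14, CD36, F13A1 and VNN2 lie left of it; the VCAN point rests on 2 mono-culture counts.

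Granule and neutrophil genes were at or near 0, with CXCR2 as the exception, although S100A8, S100A9 and S100A12 are neutrophil genes too. Of 15 such genes, MPO, LTF, LCN2, DEFA3 and DEFA4 had 0 counts in all 8 libraries and ELANE had 1 count in all. FCGR3B, a neutrophil Fc receptor, had 7, 6, 4 and 2 counts in tri-culture and 1, 0, 0 and 0 in mono-culture, a ratio of 22.4 relative to the library totals (95% counting interval 3.57 to 932). CTSG, a granule protease, had 2, 5, 2 and 1 counts in tri-culture and 0 in mono-culture, and the groups did not overlap for either gene. Both were too low to be tested, and reads of FCGR3B can be shared with its near-identical paralog FCGR3A. The summed level of the 15 was 4.81 to 8.70 CPM in tri-culture and 1.87 to 3.70 CPM in mono-culture, most of it from CXCR2, the 1 gene tested. CXCR2 was called higher (log2 0.89, edgeR adjusted p = 0.0472) and lost its call in 7 of the 8 analyses that left out 1 library (0.0579 to 0.135) and with the batch as a block (0.0581). Dendritic cell genes differed more: their sum over 13 genes was 377 to 495 CPM in tri-culture and 74.0 to 94.97 CPM in mono-culture, with CD207 at 24.2 to 71.3 CPM in tri-culture and 0 to 0.162 CPM in mono-culture. FLT3, which defines dendritic cells of the blood lineage, had 4 counts in 1 tri-culture library and 0 in all others. The part of dendritic cell RNA in the LYZ, S100A8 and S100A9 differences was not tested.

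Set side by side per length, the members covered a wide range of levels. On the deposited length-normalised signal S100A11 was the highest in tri-culture, with 1551 to 2355 units over the libraries and rank 40 to 43 among the 25107 to 30397 genes with signal in a library. S100A4 came next with 840 to 1707 units and rank 51 to 86. These ranges of units overlapped between libraries, but S100A11 was above S100A4 within each tri-culture library. In mono-culture S100A4 had 1453 to 1963 units and S100A11 1519 to 1969 units, so their order was not separated from the spread. LYZ followed in tri-culture with a mean of 415 units and rank 157 to 399, against 75.1 units and rank 1646 to 1980 in mono-culture. The means then ran in tri-culture from S100A9 (171 units) and S100A10 (154) to S100A6 (71.8), S100A8 (10.4), S100A12 (2.80), VCAN (1.02) and FCN1 (0.0628). In mono-culture the order after S100A11 was S100A10 (177), S100A6 (154), LYZ (75.1), S100A9 (54.0), S100A8 (0.640), S100A12 (0.434), FCN1 (0.0528) and VCAN (0.0055). Together the members took 0.0934% to 0.149% of counts in tri-culture and 0.102% to 0.128% in mono-culture, so their summed share overlapped between the groups. Taken singly, 5 of the 8 tested members did not overlap in CPM, against 30.2% of all tested genes. For S100A8 and VCAN among the 5, passing the low-count filter already fixed this.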

How the data were processed

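Total RNA of sorted microglia was sequenced in bulk. The deposited counts are whole reads per gene made by the authors. The submitters' processing notes name HISAT2 2.1.0, featureCounts 2.12.3 and the build GRCh38. The annotation and the strand setting were not given in the sources used here. The second deposited table holds a length-normalised signal scaled by the authors in a way not stated, and it served only for levels between genes and for limma.

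Counts were filtered with filterByExpr (minimum count 10, minimum total 15), scaled by TMM, and the quasi-likelihood test of edgeR 4.0.16 (robust, group only, R 4.3.3) was applied. A tested gene with mono-culture counts near 0 passed this filter through tri-culture alone. CPM are counts divided by the library total, scaled to 1e6. Standard errors are the log2 fold change divided by the root of F. Genes with 0 counts in mono-culture are set against 3 counts over the group; genes with few get a count ratio with a 95% interval, and both cover counting error only. The scripts were tested on simulated data.

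The labels give batch numbers 1 to 4 to both groups, which pairs the libraries. After subtraction of the group mean, paired libraries correlated at 0.183, 0.125, 0.257 and 0.0773. Replicates differed beyond counting noise (chi-square per degree of freedom 9.21 to 65.1). Since the labels describe 4 independent batches, p-values reflect batch-to-batch spread.

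Named genes were all members, each tested S100 gene, the 3 most significant called genes of a list (fewer where fewer were called), and defining markers. Any further gene was named with its values in view. The members and lists were chosen with earlier results of these data known. Alternatives used DESeq2 1.42.0, limma 3.58.1, other scalings and filters, the batch as a block, and left-out libraries or batches.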

Additional observations from a re-analysis of the deposited data

How the results depend on the processing

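The number of members called higher was 4 in 22 of 24 alternatives and 3 with a filter of 1 CPM in at least 4 libraries, which VCAN could not pass, and in batches 3 and 4 only, where S100A9 was not called. The 4 were not always the same genes. Without a filter, S100A12 was called (edgeR adjusted p = 0.0400) and S100A9 was not (0.151). The number called lower was 1, and 2 without a filter, with the DESeq2 Wald test, with the batch as a replicate block and in batches 3 and 4 only, the second being S100A4 each time. Leaving out 1 library or batch gave 4 to 4 members higher and 1 to 2 lower. The replicate block changed no other call among the members. Over all genes, 1651 to 2311 were higher and 1539 to 2135 lower when a library or batch was left out, against 2261 and 2112 with all. Of all calls 51.7% were higher with TMM, 63.0% with library size only and 60.6% with upper quartile factors. AIF1 and PTPRC, near 0 and never called, changed sign: AIF1 ran from -0.013 (without tri-culture replicate 1) to 0.355 when 1 library was left out and was -0.21 in batches 3 and 4 only. PTPRC ran from -0.021 to 0.083 when 1 library was left out and was -0.053 without batch 1, -0.0054 without batch 2, -0.020 without tri-culture libraries 1 and 3 and -0.13 in batches 3 and 4 only. The runs on tri-culture libraries 2 and 4 and on pairs of batches were chosen after seeing the data. S100A12, FCN1 and the mono-culture values of S100A8 and VCAN are limited by depth.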

Other observations

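Genes of non-classical monocytes, the patrolling CD16-positive subset, were higher in tri-culture or not called. Of 12 genes 11 were tested, 6 were higher and none lower, with a median log2 fold change of 0.79. CX3CR1, the fractalkine receptor that microglia share with this subset, averaged 868 ± 261 CPM in tri-culture and 116 ± 29.4 CPM in mono-culture (SD, n = 4 each; log2 2.79, edgeR adjusted p = 1.77e-06). FCGR3A, which encodes CD16, averaged 74.1 ± 39.9 CPM in tri-culture and 6.28 ± 1.53 CPM in mono-culture (log2 3.47, edgeR adjusted p = 1.02e-05), and SIGLEC10, an inhibitory sialic acid receptor, rose by 2.01 (2.63e-06).

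Transcription factors of the monocyte and macrophage lineage moved in both directions. Of 14 genes 12 were tested, 3 were higher and 5 lower, with a median log2 fold change of -0.12. KLF4, a factor of monocyte differentiation, averaged 1.15 ± 0.244 CPM in tri-culture and 5.79 ± 1.32 CPM in mono-culture (SD, n = 4 each; log2 -2.43, edgeR adjusted p = 1.43e-05). RUNX1 fell by 1.63 (edgeR adjusted p = 3.31e-05) and IRF4 rose by 1.94 (6.50e-05), while SPI1, which encodes PU.1, had a log2 fold change of 0.00 and was not called (0.988). Of 17 astrocyte and progenitor genes 16 were tested, 13 higher and 1 lower; of 12 neuron genes 6 were tested, 4 higher and 1 lower; of 9 oligodendrocyte precursor genes 4 were tested, 1 higher and 1 lower; of 13 dendritic cell genes 9 were tested, 6 higher and none lower; and of 7 lymphoid genes 1 was tested and not called. By adjusted p the lists were led by NDRG2, GFAP and FABP7 for astrocytes, GAP43, ELAVL4 and NEFL for neurons, FCER1A, CD207 and CLEC10A for dendritic cells, and CX3CR1, SALL1 and P2RY12 for microglia. GFAP averaged 175 ± 90.0 CPM in tri-culture and 0.282 ± 0.139 CPM in mono-culture (SD, n = 4 each), and the neuron gene STMN2 had 17 to 85 counts per library in tri-culture and 0 in mono-culture. In the oligodendrocyte precursor list OLIG2 was higher (log2 1.42, edgeR adjusted p = 0.0238), CSPG4 was lower (-1.49, 0.0169) and PDGFRA was not called (-1.07, 0.0962). OLIG2 lost its call without the tri-culture library of batch 1 (0.0560) or 2 (0.0619) or the mono-culture library of batch 1 (0.0690) or 3 (0.0677), and CSPG4 without the mono-culture library of batch 4 (0.0578). The T cell gene CD3E had 2, 1, 4 and 1 counts in tri-culture and 0 in mono-culture.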
